A study of Mus musculus with 9 samples.

Results

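The 10 genes described here are 2 transcriptional regulators of smooth muscle, Myocd and Srf, and 8 genes whose products hold the contractile apparatus to the membrane and matrix or set its tone: Synpo2, Synm, Tns1, Itga8, Lims2, Pdlim7, Vcl and Prkg1. They were taken by gene symbol, and all 10 were found among the 17179 symbols listed in at least 1 of 9 RNA sequencing libraries of mouse aorta. All 10 also passed the filter on low values, a mean of at least 1 FPKM over the 9 libraries. FPKM, a fragment count scaled for transcript length and library size, is the unit of all levels below.

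The aortas came from C57BL/6J mice. In the TPA group (2 libraries), mice received BAPN at 1 g/kg/day and injections into the abdomen of TPA, which activates the transcription factor AP-1, at 50 ng/g/day from day 1 until they were killed on day 28. In the T-5224 group (2 libraries), mice received BAPN and, by gavage, the AP-1 inhibitor T-5224 at 5 mg/kg/day, which began on day 7 or 14. The library titles name 2 weeks for T-5224 replicate 1 and 3 weeks for replicate 2. In the coQ10 group (1 library), mice received BAPN and, on the same gavage schedule, coenzyme Q10 at 10 mg/kg/day. The BAPN group (2 libraries) had BAPN alone, and the normal group (2 libraries) had distilled water. BAPN, β-aminopropionitrile, blocks lysyl oxidases, enzymes that join collagen and elastin fibres by cross-links, and was used to induce aortic dissection. The sources used here do not give age, sex or the number of animals behind a library, so p-values measure the spread between these libraries, which may be technical.

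In a smooth muscle cell of the arterial wall, actin filaments end at dense plaques of the membrane, where integrins grip the matrix outside. Vinculin, tensin and the complex of integrin-linked kinase, PINCH and parvin join the integrin tails to actin, and intermediate filaments tie the plaques to dense bodies in the cytoplasm. Serum response factor (SRF) binds a short DNA element called the CArG box in the promoters of many of these genes. Myocardin does not bind the box itself and acts as a coactivator of SRF in smooth and cardiac muscle.

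Libraries differed in what else they held, and the values stand here because they bear on the results that follow. The summed FPKM of a library lay between 502238 and 1802047, and the number of genes listed between 13982 and 16204. Haemoglobin genes took 69.4% and 69.2% of all FPKM in the TPA libraries, 40.8% and 11.2% with T-5224, 5.4% with coQ10, 68.9% and 74.1% with BAPN alone, and 1.25% and 1.03% in the normal libraries. The 10 skeletal muscle markers summed to 7982 and 14815 FPKM with TPA, 20.5 and 9029 with T-5224, 51.7 with coQ10, 3221 and 1764 with BAPN, and 2812 and 18.6 in the normal aortas. Cardiac muscle markers (8 genes) summed to 11246 FPKM in normal replicate 1 against 55 in normal replicate 2, and airway markers (8 genes) to 18873 against 41.2. Normal replicate 1 and T-5224 replicate 2 thus each stood apart from their partner, and the calls between BAPN and normal aortas and the T-5224 changes that turned with them are given with and without them. The label names a vascular cell type, and all 10 contractile smooth muscle genes used as markers were listed in every library, with Myh11, the smooth muscle myosin heavy chain, between 50.05 and 2005 FPKM.

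**Figure D1:**
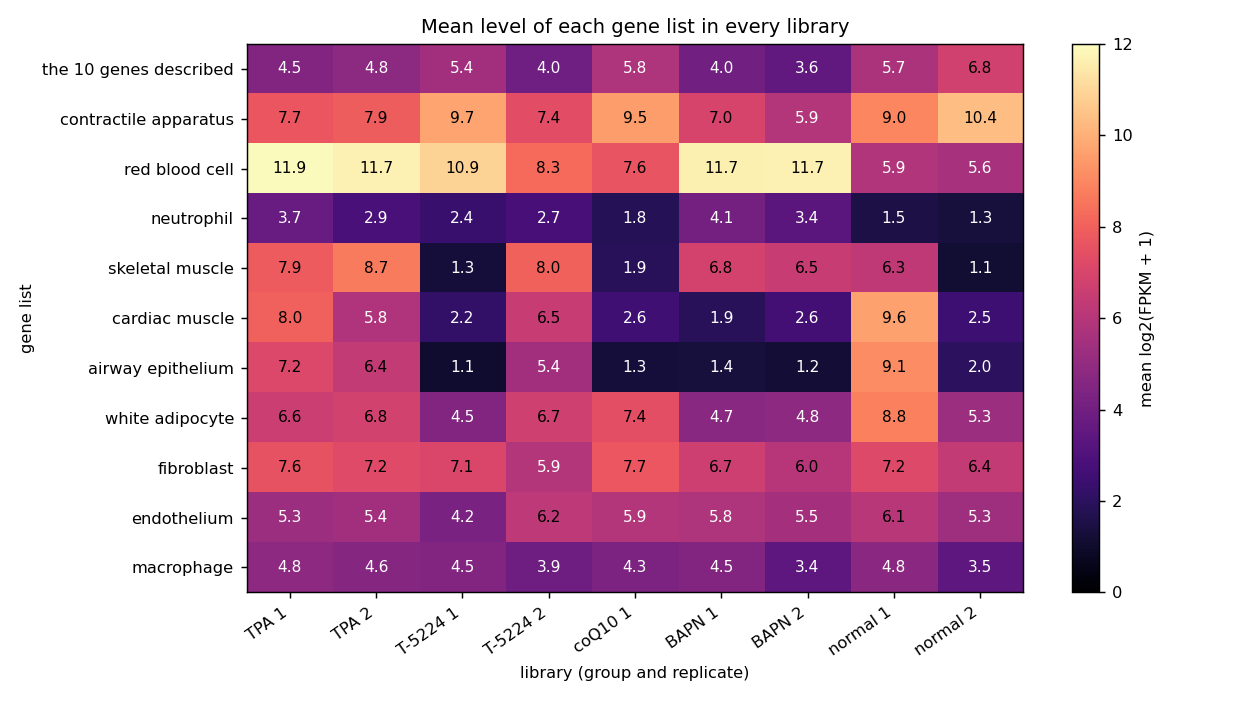
Mean log2(FPKM + 1) of the 10 genes described, of 10 contractile smooth muscle genes and of 9 lists of marker genes of other cell types (rows) in each of the 9 libraries (columns), with the value printed in each cell. The 10 genes average 6.79 in normal replicate 2 and 3.56 in BAPN replicate 2, and the skeletal, cardiac and airway rows differ by several log2 units between the libraries of the normal group and between those of the T-5224 group.

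All 10 genes were lower in both BAPN libraries than in both normal libraries, as were 51.1% of all tested genes. By limma across all genes 4 of them (Synpo2, Tns1, Lims2 and Synm) fell, and 2.36% of all tested genes did. The number of the 10 that fell was 0 with haemoglobin left out of the sum. It was 10 after rescaling to TPM, where 9481 of all 12997 genes fell. Only Synpo2 passed with another scaling (median of ratios), and none of the 4 passed when any 1 normal, BAPN or TPA library was left out. All 10 were higher in the coQ10 library than in either BAPN library (59.6% of all tested genes), and 8 of 10 were higher in both TPA libraries than in both BAPN libraries (41.4% of all), but none passed the test in a comparison that involved a treatment. With T-5224, 3 of 10 were higher in both libraries than in both BAPN libraries (34.2% of all) and 1 was lower in both. The other 6 overlapped with the BAPN group, and the share of all tested genes that overlapped was not computed. The sum of the 10 genes was 357 and 457 FPKM with TPA, 1036 and 333 with T-5224, 1230 with coQ10, 286 and 198 with BAPN, and 866 and 2215 in normal aortas. In whole tissue, fewer smooth muscle cells and less RNA per cell cannot be told apart.

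Myocd, the gene of myocardin, spanned the widest range relative to its level. It was at 2.71 and 4.15 FPKM with TPA, 4.08 and 0.61 with T-5224, 9.99 with coQ10, 1.09 and 0.39 with BAPN, and 9.42 and 41.8 in normal aortas. The coQ10 library lay above normal replicate 1 and below normal replicate 2, and T-5224 replicate 2 lay between the BAPN libraries. The BAPN mean of 0.74 ± 0.495 FPKM was 2.89% of the normal mean of 25.6 ± 22.9 FPKM (SD, n = 2 each).

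Srf was much flatter. It was at 20.4 and 19.7 FPKM with TPA, 18.3 and 10.5 with T-5224, 23.9 with coQ10, 19.8 and 19.4 with BAPN, and 27.1 and 44.8 in normal aortas. The TPA and BAPN libraries interleaved, and Srf was the only one of the 10 genes whose lowest group mean was with T-5224 (14.3 ± 5.52 FPKM, SD, n = 2) rather than with BAPN. The BAPN mean was 54.5% of the normal mean for Srf.

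Because SRF acts through CArG boxes, the promoters in RefSeq's GRCm38.p6 annotation were searched on both strands for the CArG box. They were searched for the AP-1 element TGANTCA too, because TPA and T-5224 act on that factor. A promoter here is 250 bases before to 50 after a listed start, which need not be the outer end of the gene. Promoters were found for 8 of the 10 genes, without Myocd and Lims2, and Prkg1 had 2 starts. The CArG box occurred in 2 of the 8, Srf and Vcl, against 1.81% of all 27025 genes with a promoter in the table. The AP-1 element occurred in none of the 8, against 8.97% of all genes. A match describes letters in this window and is no evidence of binding. The sequences of the 250 bases before the start are shown for the genes with a match, because SRF is known to regulate its own gene and that of vinculin, with the CArG boxes in capitals. For Srf this is chr17:46556163-46556412 on the minus strand, with boxes 82 to 73 and 62 to 53 bases before the start. The Srf gene is annotated at 46546838 to 46558267, so this stretch lies within it. For Vcl it is chr14:20929148-20929397 on the plus strand, with a box 227 to 218 bases before the start.
Srf: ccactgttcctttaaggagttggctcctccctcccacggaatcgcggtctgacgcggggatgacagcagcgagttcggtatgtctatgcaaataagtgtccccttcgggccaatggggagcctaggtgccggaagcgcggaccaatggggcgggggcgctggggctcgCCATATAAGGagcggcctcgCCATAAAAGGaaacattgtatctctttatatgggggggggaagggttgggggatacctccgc
Vcl: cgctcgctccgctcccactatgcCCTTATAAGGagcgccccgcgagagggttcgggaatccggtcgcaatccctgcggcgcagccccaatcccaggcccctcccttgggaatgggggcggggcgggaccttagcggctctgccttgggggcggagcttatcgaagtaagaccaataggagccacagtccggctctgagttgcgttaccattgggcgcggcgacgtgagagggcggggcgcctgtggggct

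Itga8 encodes the integrin α8 chain, which pairs with β1 to bind nephronectin, fibronectin and osteopontin and is abundant in vascular smooth muscle. It was at 49.6 and 64.7 FPKM with TPA, 331 and 9.51 with T-5224, 325 with coQ10, 30.1 and 11.6 with BAPN, and 184 and 631 in normal aortas. T-5224 replicate 1 matched the coQ10 library, while T-5224 replicate 2 was below every other library. Of all 10 genes Itga8 had the widest gap between the T-5224 libraries, at -4.98 on the log2 scale for replicate 2 minus replicate 1.

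Vcl encodes vinculin, which binds talin and actin at the plaque. It was at 51.3 and 48.0 FPKM with TPA, 141 and 14.2 with T-5224, 138 with coQ10, 46.8 and 40.2 with BAPN, and 98.7 and 245 in normal aortas. The T-5224 libraries again lay at opposite ends, replicate 1 beside coQ10 and replicate 2 below all other libraries, with a difference of -3.22 on the log2 scale. The TPA libraries lay just above the BAPN libraries.

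Tns1 encodes tensin 1, which links integrin β tails to actin. It was at 73.7 and 90.4 FPKM with TPA, 136 and 53.1 with T-5224, 260.1 with coQ10, 32.0 and 21.6 with BAPN, and 205 and 504 in normal aortas. Every library from a treated group lay above both BAPN libraries, and only the coQ10 library reached the range of the normal libraries.

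Lims2 encodes PINCH2, an adaptor that binds integrin-linked kinase in the complex with the actin-binding parvins. It was at 44.1 and 58.8 FPKM with TPA, 140.0 and 137 with T-5224, 192 with coQ10, 29.5 and 21.5 with BAPN, and 137 and 270 in normal aortas. It was the gene on which the T-5224 libraries agreed most closely, with 138 ± 2.11 FPKM (SD, n = 2), and both lay beside normal replicate 1. The BAPN mean of 25.5 ± 5.65 FPKM was 12.5% of the normal mean of 203 ± 93.7 FPKM (SD, n = 2 each).

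Pdlim7 encodes enigma, a protein with PDZ and LIM domains that binds actin-associated proteins and kinases. It was at 85.2 and 131 FPKM with TPA, 224 and 75.9 with T-5224, 227 with coQ10, 112 and 71.0 with BAPN, and 117 and 330.2 in normal aortas. BAPN replicate 1 lay just below normal replicate 1, and the TPA libraries overlapped with both groups.

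Synpo2 encodes synaptopodin 2, or myopodin, an actin-binding protein of Z-discs and of smooth muscle dense bodies. It was at 15.6 and 23.2 FPKM with TPA, 33.1 and 21.3 with T-5224, 43.5 with coQ10, 8.79 and 5.57 with BAPN, and 60.5 and 121 in normal aortas. The 5 treated libraries all lay above both BAPN libraries and below both normal libraries.

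Synm encodes synemin, an intermediate filament protein that joins desmin and vimentin filaments to vinculin and to the dystrophin complex. It was at 12.4 and 15.1 FPKM with TPA, 5.19 and 9.90 with T-5224, 6.66 with coQ10, 4.89 and 5.89 with BAPN, and 22.3 and 20.3 in normal aortas. It was the only gene of the 10 in which the TPA group came next to the normal group, and the only one higher in T-5224 replicate 2 than in replicate 1. Synemin is also made in striated muscle. The skeletal muscle markers given above were high in both TPA libraries and in T-5224 replicate 2. They summed to 2812 and 18.6 FPKM in the normal libraries, where Synm was at 22.3 and 20.3 FPKM. Cardiac markers summed to 3557 and 890 FPKM with TPA, 47.9 and 1566 with T-5224 and 65.6 with coQ10. With BAPN they summed to 30.0 and 60.1 FPKM, and in normal aortas to 11246 and 55. The part of striated muscle RNA in these levels was not tested.

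Prkg1 encodes cGMP-dependent protein kinase 1, through which nitric oxide and natriuretic peptides relax smooth muscle. It was at 2.41 and 1.70 FPKM with TPA, 3.79 and 1.37 with T-5224, 4.32 with coQ10, 1.46 and 1.10 with BAPN, and 4.33 and 6.88 in normal aortas. The coQ10 library lay level with normal replicate 1, and T-5224 replicate 2 lay between the BAPN libraries. On the FPKM scale Prkg1 had the lowest mean of the 10 genes in the normal group, at 5.61 ± 1.80 (SD, n = 2).

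**Figure D2:**
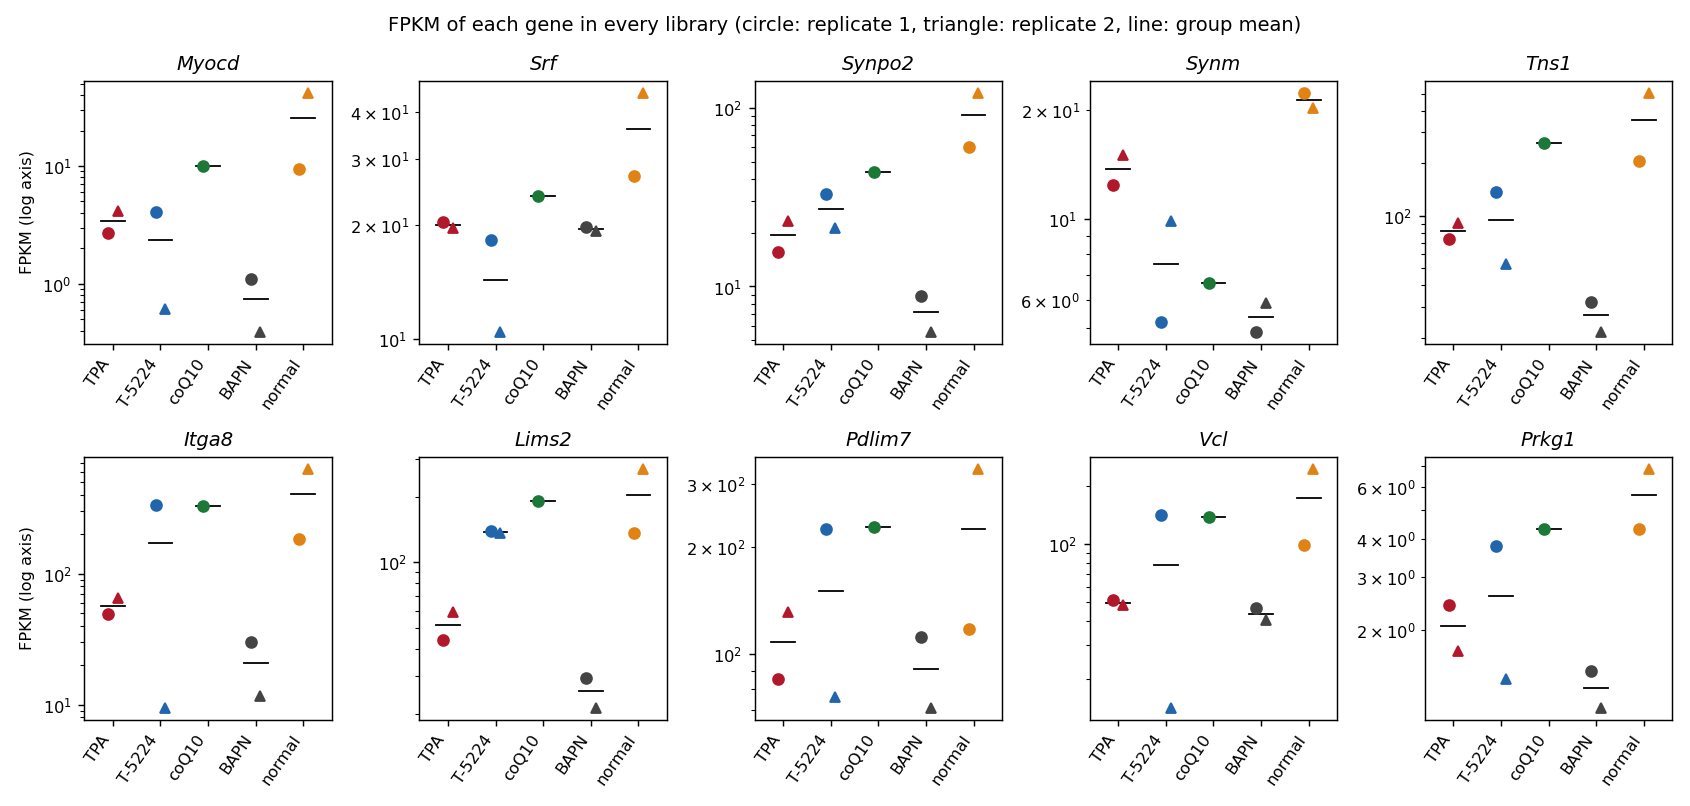
FPKM (log axis, one scale per panel) of the 10 genes in the libraries of the TPA, T-5224, coQ10, BAPN and normal groups, with circles for replicate 1, triangles for replicate 2 and a line at the group mean. For all 10 genes both BAPN points lie below both normal points, and the T-5224 points are widest apart for Itga8 (331 and 9.51 FPKM) and nearly coincide for Lims2 (140.0 and 137 FPKM).

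By group mean the BAPN group was last for 9 of the 10 genes. Itga8, Vcl, Tns1, Synpo2, Lims2 and Prkg1 had the order normal, coQ10, T-5224, TPA, BAPN. Pdlim7 had that order too except that coQ10, at 227 FPKM, stood before normal, at 224 FPKM. Myocd and Srf had coQ10 and then TPA after normal, and Synm had TPA, T-5224 and coQ10. Many neighbours in these orders overlapped: coQ10 lay within the range of the normal libraries for Myocd, Tns1, Itga8, Lims2, Pdlim7 and Vcl. T-5224 and TPA, next to each other for 9 genes, overlapped for 7 of them, Lims2 and Synm being the exceptions. TPA and BAPN, neighbours for 8 genes, were separate for Synpo2, Tns1, Itga8, Lims2, Vcl and Prkg1 and overlapped for Srf and Pdlim7. Over all tested genes, 41.4% had both TPA libraries above both BAPN libraries. Such shares were not computed for coQ10 with normal or for T-5224 with TPA.

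How near the coQ10 library stood to normal depended on which normal library it was set against. Pdlim7 was at 193% of normal replicate 1 and 68.7% of replicate 2, Itga8 at 176% and 51.5%, Lims2 at 140% and 71.2%, and Vcl at 139% and 56.2%. Tns1 was at 127% and 51.6%, Myocd at 106% and 23.9%, and Prkg1 at 99.8% and 62.8%. Srf at 88.4% and 53.3%, Synpo2 at 72.0% and 36.0%, and Synm at 29.9% and 32.9% were below both normal libraries, as was Prkg1. Synm was the gene for which the choice of normal library made the least difference.

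BAPN against normal asks what the dissection model does to these genes. On the log2(FPKM + 1) scale, which understates changes of low genes such as Myocd and Prkg1, 4 of the 10 fell by limma with Benjamini-Hochberg adjustment over 12997 genes. Synpo2 fell most clearly (-3.43, SE 0.450, adjusted p = 0.0339), and Tns1 fell as well (-3.56, SE 0.594, adjusted p = 0.0458). So did Lims2 (-2.88, SE 0.404, adjusted p = 0.0426) and Synm (-1.80, SE 0.341, adjusted p = 0.0490). For comparison, 2.36% of all tested genes (307) fell and 117 genes rose; with median-of-ratios scaling 30 fell and 196 rose, and after rescaling to TPM 9481 fell and 156 rose. The other 6 did not pass: Myocd at -3.63 (SE 0.788, limma adjusted p = 0.0541), Prkg1 at -1.51 (0.0803), Itga8 at -4.11 (SE 1.504, 0.118), Srf at -0.80 (0.182), Vcl at -1.82 (0.240) and Pdlim7 at -1.14 (0.289), with adjusted p in brackets. At an unadjusted p under 0.05, 7 of 10 were lower, and 32.4% of all genes had such a p in either direction. Both BAPN libraries lay below both normal ones for 10 of 10 genes, against 51.1% of all tested genes.

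The median change of the 10 genes between BAPN and normal aortas was -2.35, beside -0.51 over all genes tested. Median-of-ratios scaling, which put the median of all genes at -0.01, put that of the 10 at -1.79 and left Synpo2 alone past the test (limma adjusted p = 0.0447). All 10 remained below 0 with that scaling. The number of the 10 genes that fell depended on single libraries: it was 0 without either normal, either BAPN or either TPA library, 8 without either T-5224 library, and 4 without coQ10. Calls over all genes moved with it: 2965 genes fell without T-5224 replicate 1 and 3000 without replicate 2, against 307 in the full fit. Without normal replicate 1, which held cardiac and airway RNA, the changes were -3.93 for Synpo2, -4.21 for Tns1, -3.37 for Lims2 and -1.74 for Synm. Without normal replicate 2 they were -2.94, -2.92, -2.40 and -1.87 in the same order. In the normal pair, 9 of the 10 genes were higher in replicate 2, against 35.4% of all tested genes, and their median absolute difference was 1.14 on the log2 scale, against 0.45 over all genes. Red blood cell markers moved with this comparison, 8 of 8 being listed in both BAPN libraries at 1127648 and 1337499 summed FPKM. In each normal library 7 of 8 were listed, at 7237 and 5201 summed FPKM. Neutrophil markers, of which 6 or 7 of 8 were listed in these libraries, summed to 1800 and 1027 FPKM with BAPN and 30.1 and 25.7 in normal aortas. The part of these cells in the result was not tested.

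**Figure D3:**
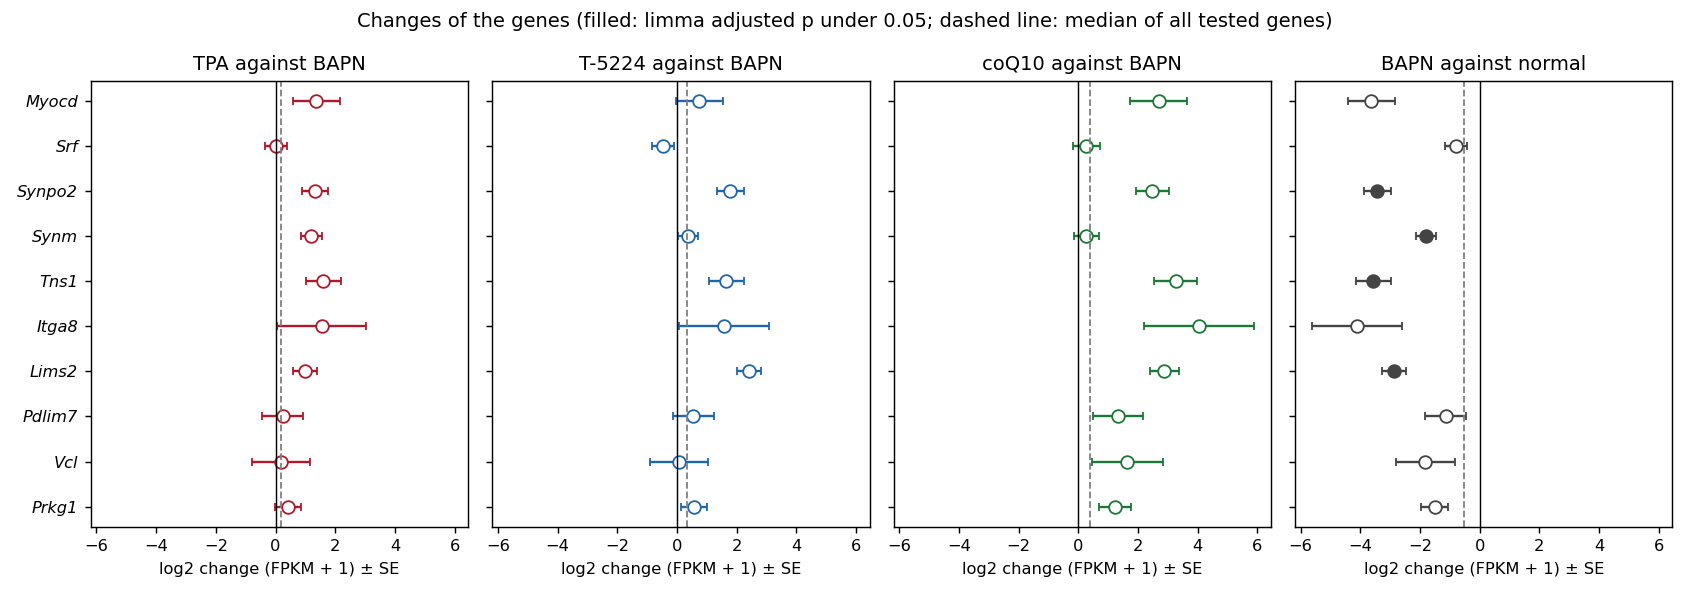
Change of each gene on the log2(FPKM + 1) scale with its standard error from limma, in 1 panel per comparison (each treatment against BAPN, and BAPN against normal); filled points pass an adjusted p of 0.05 and the dashed line is the median of all tested genes. Only Synpo2, Synm, Tns1 and Lims2 in BAPN against normal are filled, and the points of the coQ10 panel lie between 0.27 and 4.04.

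TPA against BAPN asks what an AP-1 activator adds to BAPN. By limma 0 of the 10 genes passed, beside 0.0385% of all tested genes, and 4 had an unadjusted p under 0.05, against 10.2% of all genes. The largest values were Tns1 at 1.60 (SE 0.594, adjusted p = 0.467), Itga8 at 1.54 (0.718), Myocd at 1.36 (0.558), Synpo2 at 1.32 (0.445), Synm at 1.20 (0.405) and Lims2 at 0.99 (0.486). Prkg1 at 0.42, Pdlim7 at 0.24, Vcl at 0.19 and Srf at 0.03 lay nearer to the median of all genes, 0.18. Both TPA libraries lay above both BAPN libraries for 8 genes, all but Srf and Pdlim7, against 41.4% of all tested genes. The median of the 10 was 1.10, and 0.92 with median-of-ratios scaling, where Srf and Vcl stood at -0.16 and -0.01. In a fit of the TPA and BAPN libraries alone, Synm and Tns1 passed, but that fit called 972 of all 12997 genes, against 5 in the full fit. The 8 red blood cell markers, all listed, stood at 1018252 and 1017345 summed FPKM with TPA and 1127648 and 1337499 with BAPN. The 8 cardiac markers, all listed, summed to 3557 and 890 FPKM with TPA, against 30.0 and 60.1 with BAPN. The 8 airway markers summed to 13309 and 5340 FPKM with TPA, against 20.9 and 16.4 with BAPN, where Sftpc and Sftpb were not listed. The part of heart and airway RNA in the result was not tested.

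T-5224 against BAPN asks what blocking AP-1 adds to BAPN. By limma 0 of 10 genes passed, beside 0.0308% of all tested genes, and 3 had an unadjusted p under 0.05, against 18.3% of all genes. Lims2 was at 2.41 (SE 0.404, adjusted p = 0.148), Synpo2 at 1.78 (0.162) and Tns1 at 1.66 (0.230), and these were the 3 genes with both T-5224 libraries above both BAPN libraries, against 34.2% of all tested genes. Srf, at -0.47 (0.502), was the 1 gene with both T-5224 libraries below both BAPN libraries. The shares of all tested genes that were lower or overlapped were not computed. The other 6 of the 10 overlapped: Itga8 at 1.58, Myocd at 0.75, Prkg1 at 0.57, Pdlim7 at 0.55, Synm at 0.37 and Vcl at 0.07. The median of the 10 was 0.66, and 0.35 over all genes; with median-of-ratios scaling these were 0.46 and 0.04, and Vcl stood at -0.29. Which T-5224 library was kept set the direction of several genes. Without replicate 2, Itga8 stood at 4.07 (limma adjusted p = 0.0689) and Lims2 at 2.43 (0.0656), and without replicate 1 Itga8 stood at -0.91 (0.504), Vcl at -1.54 (0.137) and Lims2 at 2.40 (0.0638). These fits took the remaining T-5224 library to be as variable as the replicated groups. Skeletal muscle markers summed to 20.5 and 9029 FPKM in these T-5224 libraries, with 9 of 10 listed in replicate 1, where Myh2 was missing, and all 10 in replicate 2. Airway markers summed to 21.4 and 4294 FPKM, cardiac markers to 47.9 and 1566, white adipocyte markers to 1236 and 20260, endothelial markers to 225 and 1415, and red blood cell markers to 377939 and 122480. Their part in the gap was not tested. The titles also differ by treatment time, 2 weeks for replicate 1 and 3 weeks for replicate 2, and a difference in time cannot be told apart from the spread between these libraries.

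coQ10 against BAPN asks what coenzyme Q10, an electron carrier of the respiratory chain and an antioxidant, adds to BAPN. With 1 library, it has no replicate of its own, and the fit took it to be as variable as the replicated groups. By limma 0 of 10 genes passed, beside 0.0154% of all tested genes, and 4 had an unadjusted p under 0.05, against 19.8% of all genes. Itga8 was at 4.04 (SE 1.84, adjusted p = 0.277), Tns1 at 3.26 (0.185), Lims2 at 2.88 (0.185), Myocd at 2.69 (0.216) and Synpo2 at 2.47 (0.185). Vcl at 1.64, Pdlim7 at 1.34 and Prkg1 at 1.23 lay in between, and Srf and Synm were both at 0.27. All 10 were above both BAPN libraries, against 59.6% of all tested genes. The median of the 10 was 2.06, and 0.39 over all genes. With median-of-ratios scaling the median of the 10 was 1.60, and Srf at -0.19 and Synm at -0.15 were below 0. Red blood cell markers summed to 33366 FPKM in the coQ10 library, against 1127648 and 1337499 with BAPN, and skeletal muscle markers to 51.7 against 3221 and 1764. Their part in the difference was not tested.

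TPA against T-5224 sets the AP-1 activator against the inhibitor. By limma 0 of 10 genes passed, beside 0.0154% of all tested genes, and 2 had an unadjusted p under 0.05, against 10.9% of all genes. Lims2 was at -1.43 (adjusted p = 0.443), with both TPA libraries below both T-5224 libraries. Synm at 0.84 (0.447) and Srf at 0.50 had both TPA libraries above both T-5224 libraries. The share of all tested genes separated in this way was not computed, so these separations are a description only. The median of the 10 was -0.05, and -0.08 over all genes. The comparisons of TPA, T-5224 and coQ10 with BAPN share the same BAPN libraries, so a likeness between them is no separate result.

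Members were then set against the contractile apparatus itself, as the log2(FPKM + 1) of a gene minus the mean of 10 contractile genes (Acta2, Myh11, Tagln, Cnn1, Lmod1, Mylk, Myl9, Tpm2, Smtn and Cald1) of the same library. This difference does not depend on how a library was scaled, apart from the pseudocount, which raises Myocd and Prkg1 where the whole library is low. The contractile mean was 7.66 and 7.92 with TPA, 9.73 and 7.36 with T-5224, 9.54 with coQ10, 6.95 and 5.92 with BAPN, and 8.97 and 10.39 in normal aortas.

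Tns1 kept the steadiest distance from the contractile mean. It was at -1.43 and -1.41 with TPA, -2.63 and -1.60 with T-5224, -1.51 with coQ10, -1.90 and -1.42 with BAPN, and -1.29 and -1.41 in normal aortas. T-5224 replicate 1 was the lowest, and BAPN replicate 2 and normal replicate 2 nearly coincided.

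Between BAPN and normal aortas the contractile list had a median change of -3.45, beside -0.51 over all tested genes. Any gene that fell less than the list stands higher against it with BAPN. The share of all tested genes that did so was not computed. Pdlim7 was such a gene. It was at -1.23 and -0.88 with TPA, -1.91 and -1.09 with T-5224, -1.71 with coQ10, -0.13 and 0.25 with BAPN, and -2.09 and -2.02 in normal aortas. Both BAPN libraries lay above all 7 others, and both normal libraries below them. Srf, at -2.57 and -1.57 with BAPN against -4.16 and -4.87 in normal aortas, and Vcl, at -1.37 and -0.55 against -2.33 and -2.45, were likewise higher relative to the contractile mean in BAPN libraries. So was Prkg1, at -5.65 and -4.85 with BAPN against -6.56 and -7.41 in normal aortas, a low gene whose difference the pseudocount affects. Synm was also higher, at -4.39 and -3.13 with BAPN against -4.43 and -5.98 in normal aortas, though BAPN replicate 1 and normal replicate 1 were nearly level.

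Itga8 went the other way, at -1.99 and -2.26 with BAPN against -1.44 and -1.08 in normal aortas, and at -1.35 and -3.96 with T-5224. In T-5224 replicate 2, Lims2 stood at -0.25, above every other library, while Itga8 stood below every other library. These differences are a description with no test.

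**Figure D4:**
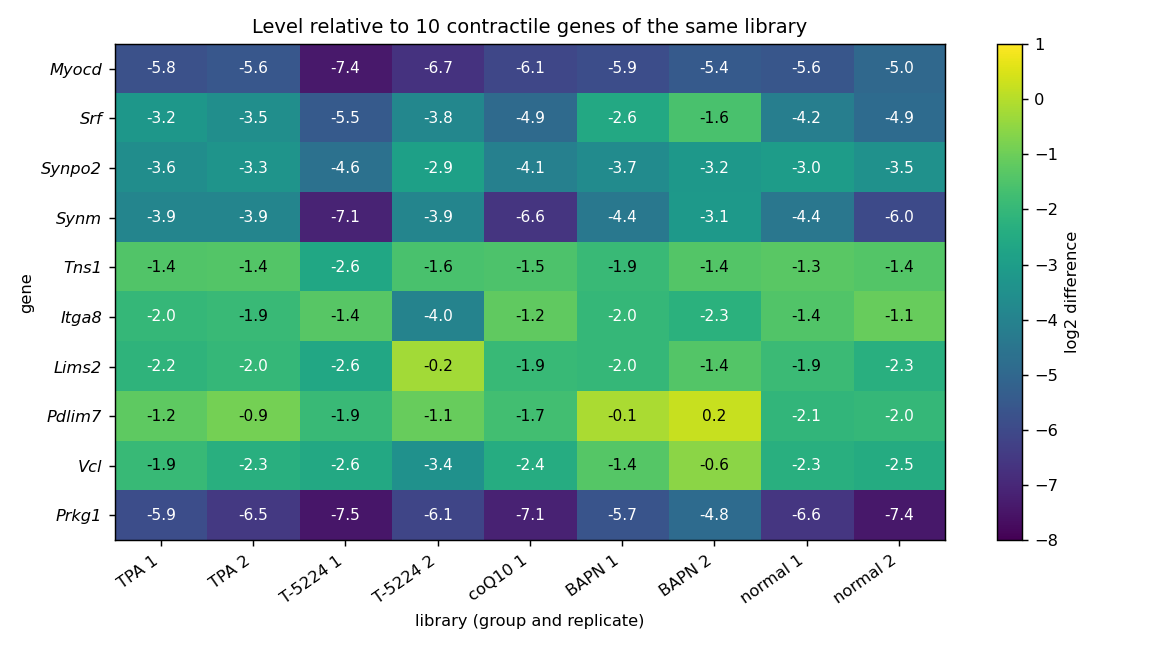
Log2(FPKM + 1) of each of the 10 genes (rows) minus the mean of 10 contractile genes of the same library (columns), with the value to 1 decimal in each cell. Pdlim7, Srf, Vcl and Prkg1 have their highest values in the BAPN libraries, and T-5224 replicate 2 holds the lowest value of Itga8 (-3.96) and the highest of Lims2 (-0.25).

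The partners of the 10 genes were read from lists chosen with earlier results of these data known, and the counts that follow stand beside 2.36% of all tested genes that fell and 51.1% that were lower in both BAPN libraries. By limma 8 genes of these lists fell in all. Of these, 0 passed without normal replicate 1 (adjusted p from 0.0655 to 0.0838) and 0 without normal replicate 2 (0.0556 to 0.121), while all 8 stayed below 0. With median-of-ratios scaling Tns2 alone passed (adjusted p = 0.0411). In BAPN against normal aortas, 1 of 10 contractile genes fell by limma, Lmod1, a leiomodin that nucleates actin filaments, at 10.5 and 3.92 FPKM with BAPN against 116 and 432 FPKM in normal aortas (-4.90, adjusted p = 0.0490). The median of the contractile list was -3.45, and all 10 of its genes were lower in both BAPN libraries.

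Of 13 measured coactivators, repressors and cofactors of SRF, 1 fell, Gata6, a GATA factor of smooth muscle, at 4.65 and 2.97 FPKM with BAPN against 21.3 and 38.8 in normal aortas (-2.65, limma adjusted p = 0.0490). The median of that list was -1.05. With coQ10, Gata6 was at 38.5 FPKM, with T-5224 at 36.8 and 14.7, and with TPA at 12.0 and 8.94, and it did not pass the test in those comparisons.

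Of 29 adhesion plaque partners, 2 fell with BAPN, among them Tns2, which encodes another tensin. Tns2 was at 19.9 and 15.7 FPKM with BAPN against 114 and 133 FPKM in normal aortas (-2.73, limma adjusted p = 0.0274). The groups did not overlap, and the normal libraries were close to each other. The median of the list was -1.53, with 22 of 29 genes lower in both BAPN libraries, against 51.1% of all genes. Parva, which encodes the parvin of the complex that PINCH2 joins, was at 39.0 and 45.6 FPKM with TPA and 49.2 and 45.4 with T-5224, below the 85.7 and 79.2 FPKM with BAPN (limma adjusted p = 0.395 and 0.213).

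Of 11 intermediate filament and dystrophin complex genes, 2 fell with BAPN: Dtna, the gene of the α-dystrobrevin that synemin binds, at 5.86 and 3.44 FPKM against 24.8 and 53.5 in normal aortas (-2.76, limma adjusted p = 0.0490), and the sarcoglycan gene Sgca at 5.60 and 3.29 against 21.3 and 28.6 (-2.27, 0.0467). Both are also active in striated muscle. Of 12 genes of the cGMP pathway, in which Prkg1 acts, 2 fell. Npr1, the receptor guanylyl cyclase for natriuretic peptides, was at 18.0 and 13.3 FPKM with BAPN against 64.8 and 145 (-2.57, limma adjusted p = 0.0458). Ppp1r12a, the myosin phosphatase subunit on which this kinase acts, was at 14.5 and 11.3 against 57.6 and 115 (-2.58, 0.0458). The cGMP list had a median of -2.57, against -0.51 over all genes, and 11 of 12 were lower in both BAPN libraries, against 51.1% of all genes.

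None of the 6 other PDZ and LIM genes of the family of Pdlim7 passed, with 3 at an unadjusted p under 0.05 by limma. The median of that list was -0.81, and -0.24 with median-of-ratios scaling, and 1 of the 6 stood above 0. Of the 6, 3 were lower in both BAPN libraries, against 51.1% of all genes. Pdlim3, a protein of actin anchorage sites, was at 51.3 and 25.3 FPKM with BAPN against 202 and 679 (-3.32, adjusted p = 0.0558) and Ldb3, a gene of striated muscle Z-discs, at 27.5 and 8.87 against 122 and 106 (-2.78, 0.0552). Of 5 matrix ligands of integrin α8 none passed by limma, with 2 at an unadjusted p under 0.05 and in opposite directions. Npnt, the gene of nephronectin, was at 17.5 and 4.85 FPKM with BAPN against 105 and 408 in normal aortas (-4.32, adjusted p = 0.103). Spp1, the gene of osteopontin, was at 156 and 25.5 FPKM with BAPN against 4.40 and 0.91 (4.33, adjusted p = 0.0942). The libraries of the groups did not overlap for either ligand. Over all tested genes 51.1% were lower in both BAPN libraries, as Npnt was, and the share higher in both was not computed. With T-5224, Npnt was at 234 and 8.44 FPKM, split between replicates in the same direction as Itga8. That split was not particular to these genes, since the contractile mean was at 9.73 and 7.36 in the same libraries. No gene of these lists passed in any comparison between treatments or of a treatment with BAPN, by the same fit.

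As a description over the 9 libraries, the genes whose log2(FPKM + 1) profile was most like that of Myocd by Pearson's r were Mertk (0.994), Exoc6b (0.983), Garem (0.982), Samd4 (0.981) and Foxj2 (0.981). The 90th percentile of r over all tested genes was 0.84, so a high r was common in these libraries, which share the differences in blood content and scaling given above. Mertk, a receptor tyrosine kinase, was at 7.55 and 8.11 FPKM with TPA, 11.4 and 2.77 with T-5224, 19.2 with coQ10, 4.04 and 2.76 with BAPN, and 20.4 and 58.7 in normal aortas. Closest to the mean standardized profile of the 10 genes were Mertk (0.993), the laminin-binding integrin chain gene Itga7 (0.993), Hip1 (0.992), Foxj2 (0.990) and Samd4 (0.990). Among the 10 themselves, r with that mean was highest for Myocd (0.99) and Tns1 (0.98) and lowest for Synm (0.55), Srf (0.80) and Lims2 (0.81), each gene being part of the mean.

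In the GRCm38.p6 annotation, 4 of the 10 genes overlap another protein-coding gene, and the sources used here do not name the strand used in counting, so shared reads cannot be told apart. Tns1 (chromosome 1, 73910232 to 74124548) overlaps Rufy4, at no more than 2.20 FPKM in any library. Lims2 overlaps Gpr17, which was at 0.08 and 0.03 FPKM with BAPN against 2.97 and 5.44 in normal aortas, the same direction as Lims2 at a far lower level. Vcl (chromosome 14, 20929383 to 21033676) overlaps Ap3m1, at 7.55 to 25.4 FPKM. Prkg1 (chromosome 19, 30564487 to 31765268) overlaps Cstf2t, which at 3.54 to 11.3 FPKM was the higher of that pair in every library.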

How the data were processed

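RNA sequencing of 9 aorta libraries was analysed (TruSeq RNA kit after Trizol extraction, per the labels' protocols). The authors deposited a table of FPKM by gene symbol for each library, with 2 decimals, and per the submitters' processing notes the genome build was mm10. The sources used here do not name the aligner, counting tool or annotation. FPKM carry no counts, so the depth per library is unknown and no counting interval is given. In the spacing of low values, the commonest ratio to BAPN replicate 2 lay between 0.901 and 1.19. Only 21 of 352 low genes in T-5224 replicate 2, and 52 of 537 in normal replicate 1, lay near that ratio. It therefore cannot settle the depth. Unlisted genes were set to 0.

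From the deposited FPKM, log2(FPKM + 1) was computed, and the 12997 genes with a mean of at least 1 FPKM were fitted in limma 3.58.1 (R 4.3.3) with 5 group means, a mean-variance trend and 4 residual degrees of freedom. P-values were two-sided, with Benjamini-Hochberg adjustment over all tested genes and a threshold of 0.05. The fit was tested on simulated data with independent noise of the same SD for every gene and library. The spread of the real groups differed, with a median absolute log2 difference between libraries of 0.74 for T-5224 and 0.21 for TPA. The simulation does not cover such a difference. The T-5224 libraries were taken as 2 replicates because the labels number them so, although their titles name different weeks, and the label read as coQ10 is written in another form. Haemoglobin took up to 74.1% of the FPKM of a library, and scaling per library total can lower the other genes there, so median-of-ratios scaling, rescaling to TPM and a total without haemoglobin were tried. Other alternatives were a pseudocount of 0.1, no filter, only the groups compared, a replicate block, and each library left out.

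The 10 genes and all lists were chosen with earlier results of these data known. Named genes were the 10, the genes of each list that passed or up to 3 with the smallest p in a comparison (a selection is printed, and some genes that the rule takes are left out), and the 5 genes most like Myocd or the mean of the 10. RefSeq's GRCm38.p6 tables gave promoters and coordinates, and 16458 symbols matched. Python 3.11.15 with pandas 2.3.3, numpy 2.4.6 and matplotlib 3.10.9 made the tables and plots.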

Additional observations from a re-analysis of the deposited data

How the results depend on the processing

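With 1 or 2 libraries a group, calls were fragile, and the cause was not tested. In BAPN against normal, the number of the 10 genes that fell was 4, and it was 1 with median-of-ratios scaling, 2 with a pseudocount of 0.1, 0 with haemoglobin left out of the sum, 0 without a filter, 0 with only these groups, 0 with a replicate block, and 10 after rescaling to TPM. It was 10 without normal replicate 1 and T-5224 replicate 2 together, where the spread comes from the BAPN and TPA libraries alone and 2794 of all genes fell and 1238 rose, and 0 to 8 when each library was left out. All 10 stayed below 0 in that comparison in these settings. In TPA against BAPN the number was 0, and 2 with only these groups and without those 2 libraries. In T-5224 against BAPN it was 0, and 3 with TPM and 6 without those 2 libraries; in coQ10 against BAPN it was 0, and 9 with TPM and 7 without them; in TPA against T-5224 it was 0, and 1 (Vcl) without them. Leaving out 1 library made no call in these comparisons. Without those 2 libraries, calls over all genes were 1023 for TPA, 2245 for T-5224 and 2967 for coQ10 against BAPN, and 584 for TPA against T-5224. Over all genes, T-5224 against BAPN had 0 rises and 4 falls, and 3045 and 123 with TPM, and coQ10 against BAPN had 0 and 2, and 7206 and 122 with TPM.

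Of 840 recomputed changes, 706 kept direction and side of the threshold, 45 lost and 49 gained the call, and 40 turned sign, none of them in BAPN against normal. With median-of-ratios scaling the turned values were Srf -0.16 and Vcl -0.01 (TPA against BAPN), Vcl -0.29 (T-5224 against BAPN), Srf -0.19 and Synm -0.15 (coQ10 against BAPN), and Tns1 0.10 and Itga8 0.12 (TPA against T-5224). With haemoglobin left out they were Synm -0.14, Pdlim7 -0.03 and Vcl -0.48 (T-5224 against BAPN), and Synpo2 0.20, Tns1 0.63, Itga8 0.61, Pdlim7 0.39 and Prkg1 0.26 (TPA against T-5224). With TPM they were Srf 0.25 (T-5224 against BAPN), and Srf -0.01 and Vcl -0.41 (TPA against T-5224), and with a pseudocount of 0.1 Itga8 0.01 (TPA against T-5224). Without the 2 libraries together they were Synm -0.04 (T-5224 against BAPN), Myocd -0.22 and Vcl -1.49 (TPA against T-5224).

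Leaving out each library in turn gave these ranges for the changes that turned sign. In TPA against BAPN, Pdlim7 lay at -0.08 to 0.57. In T-5224 against BAPN they were Myocd -0.08 to 1.58, Synm -0.04 to 0.77, Itga8 -0.91 to 4.07, Pdlim7 -0.23 to 1.32 and Vcl -1.54 to 1.68. In TPA against T-5224 they were Myocd -0.22 to 1.44, Tns1 -0.73 to 0.61, Itga8 -2.53 to 2.46, Pdlim7 -1.08 to 0.47, Vcl -1.49 to 1.73 and Prkg1 -0.66 to 0.36.

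Same-numbered libraries of different groups deviated together with correlations of -0.44 to 0.18, which gives no sign that the numbers pair the libraries. These correlations cannot exclude pairing or a shared batch, because the deviations also hold the marker differences given above. The replicate block, under which 0 of the 10 passed in each of the 5 comparisons, is given as a setting only.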
